A study of Drosophila melanogaster with 16 samples.

Results

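Synaptic vesicle and active zone genes encode the machinery with which a neuron releases transmitter, and the mRNAs of most are found in nearly every neuron of the fly head. The transmitter genes among them, such as ChAT, VGlut and VGAT, belong to neurons that use a given transmitter. The levels of 31 such genes were taken from RNA-seq of Drosophila melanogaster heads to ask how much pan-neuronal message the RNA of the sweet taste neurons held beside whole heads, and how it responded to dietary sugar. The members were chosen by name and not by a cut on measured values, though with earlier results of these data known. They were matched to the count tables by FlyBase gene ID among 17489 genes. Of the 31 genes, 30 were listed, and the vesicular acetylcholine transporter gene VAChT was not analysed here. The listed member stnB, a stonin-family endocytic adaptor, held 0 counts in all 16 libraries, as did stnA, which overlaps it on the same strand. That leaves 29 genes, each of which passed the filter on low counts in every comparison, with 817 to 186078 counts in a library.

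The flies were males of the genotype Gr5a>UAS-Rpl3-3XFLAG, in which Gr5a-GAL4 drives a FLAG-tagged ribosomal protein in the cells that express the sweet taste receptor gene Gr5a. All groups carried this transgene. In translating ribosome affinity purification (TRAP), anti-FLAG beads pull tagged ribosomes out of a head lysate and their RNA is sequenced, here called the Gr5a fraction, while total RNA of the lysate is the input. Each replicate pooled 300 heads. Diets began at day 5 of adult life. Input was sequenced after 7 days on the control diet with 5% sucrose (CD7, 3 libraries) or the sugar diet with 30% sucrose (SD7, 2 libraries). Libraries of the Gr5a fraction came from 3 CD7, 2 SD7 and 2 SD3 replicates, the last after only 3 days of sugar. At day 19 the fraction was taken from flies fed control food for 14 days (CD>CD, 2 replicates) and from flies fed sugar for 7 days and then control food for 7 more (SD>CD, 2 replicates). The labels give day 12 for collection of the others and no separate age for SD3. The 2 SD>CD libraries follow their condition label, which their titles contradict by reading CD>CD, so each statement on SD>CD rests on that label.

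Gene counts per library ran from 22901154 in an SD>CD library to 55290069 in an input library. Gr5a itself was 3.27 ± 0.44 (SE) higher on the log2 scale in the Gr5a fraction than in input on CD7 (edgeR adjusted p = 0.000606) and 4.43 ± 0.59 higher on SD7 (edgeR adjusted p = 0.00188). Of 7 sweet and bitter taste genes with Gr5a among them, 5 were higher on CD7 and 4 on SD7, with 0 lower. Their log2 fold changes ran from -0.04 to 4.40 on CD7 and from -0.51 to 5.10 on SD7. Their summed level on CD7 was low, at 13.1 to 22.5 CPM in the fraction and 3.52 to 3.74 CPM in input. Over all 14185 genes, 24.3% were called higher and 22% lower in the fraction on CD7, and 10.8% and 7.95% on SD7. Markers of other cells and tissues, some of them outside the head, were still present in the fraction. All 14 genes of a photoreceptor list were lower there on each diet, and their summed level ran from 11438 to 30260 CPM (counts scaled to a library of 1000000) in the 11 Gr5a libraries against 28224 to 41611 in the 5 input libraries. Of 9 glial genes, 5 were higher and 1 lower in the fraction on CD7 and 3 higher and 1 lower on SD7, with median log2 fold changes of 0.33 and -0.06. Of 12 midgut genes, 11 were higher and 1 lower on CD7 and 10 higher on SD7, with medians of 1.91 and 1.87, and their sum on CD7 was 2994 to 6125 CPM against 968 to 1348 CPM in input. Genes of accessory gland (10 of 10), testis (10 of 12), fat body (4 of 5) and muscle (5 of 10) were lower on CD7, and 1, 2, 1 and 4 of them on SD7, with none higher. The part of these lists in the members' values was not tested. In pulled-down or bulk RNA of this kind, fewer cells of a type and less RNA per cell cannot be told apart.

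At a synapse, vesicles filled with transmitter by transporters dock at the active zone, a protein scaffold built in the fly around Bruchpilot. Fusion is carried out by the SNARE proteins nSyb, Syx1A and Snap25, is triggered by calcium through synaptotagmin, and is followed by retrieval of vesicle membrane by endocytosis. Fly gustatory receptor neurons use acetylcholine, photoreceptors use histamine and motor neurons use glutamate. The 29 genes were grouped by these roles into 6 active zone genes, 7 fusion genes, 3 synaptotagmins, 5 vesicle-associated genes, 3 transmitter genes, 4 endocytic genes and the neuronal marker elav.

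Within the Gr5a fraction on CD7, members differed widely in level. Per kilobase of exon, nSyb, the vesicle SNARE, stood at 247 ± 37.5 CPM per kb (SD, n = 3) and cpx, the complexin that clamps and supports fusion, at 202 ± 38.6. Sap47, a vesicle-associated protein, and Syt1, the calcium sensor of fast release, followed at 146 ± 13.9 and 144 ± 25.5, and these neighbours did not differ beyond their spread. The lowest 3 were ChAT, the enzyme that makes acetylcholine, at 15.2 ± 0.61, Nsf2 at 14.8 ± 1.29 and VGAT, the vesicular GABA transporter, at 12.3 ± 1.48 CPM per kb. ChAT and Nsf2 lay within each other's spread. VGlut, the vesicular glutamate transporter, was at 81.3 ± 11.3, well above ChAT on the same scale. ChAT (chr3R:18705501-18732344, plus strand) shares its start with VAChT on the same strand, so reads in the shared stretch may not have been assigned and its level is uncertain, as is that of Syx1A, which overlaps eIF4EHP on its strand.

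On the control diet, most presynaptic genes were at or somewhat below their input level in the Gr5a fraction. Of 29 members, 9 were lower and 3 higher at an edgeR adjusted p under 0.1, against 22% and 24.3% of 14185 genes called lower and higher, and the members' median log2 fold change was -0.16 against 0.02 over all genes. This fit did not pair the libraries. A fit of the CD7 libraries alone, blocked on replicate number, called 14 members lower and 3 higher, beside 7915 of 13445 genes in either direction. The mean level of a member in the fraction ran from 63.9% to 139% of its input mean, with a median of 88.9%. Roles differed in their counts. None of the 6 active zone genes was lower and 2 were higher, whereas 4 of 7 fusion genes and 2 of 3 transmitter genes were lower.

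The largest decreases on CD7 were in VGAT, Syngr and VGlut. VGAT (chr2R:14198478-14201249, minus strand) stood at 49.0, 51.9 and 55.5 CPM in input and at 30.4, 37.9 and 31.6 CPM in the fraction. Every fraction library lay below every input library, and the log2 fold change was -0.64 ± 0.14 (SE, edgeR adjusted p = 0.0058). Syngr (chr2R:13841761-13846255, minus strand), which encodes synaptogyrin, a membrane protein of the vesicle, stood at 186, 176 and 183 CPM in input and 114, 137 and 115 CPM in the fraction. These groups did not overlap either, with a log2 fold change of -0.57 ± 0.12 (edgeR adjusted p = 0.0053). VGlut (chr2L:2400295-2410662, plus strand) stood at 621, 672 and 709.5 CPM in input and at 424, 539 and 431 CPM in the fraction. It fell by 0.51 on the log2 scale (SE 0.14, edgeR adjusted p = 0.015), again without overlap.

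Of the 7 fusion genes, Snap25, Syx1A, cpx and comt fell, Nsf2 rose, and nSyb (-0.22 ± 0.15) and Rop (-0.03 ± 0.12) did not pass the test. The 2 fly genes for NSF, the ATPase that takes SNARE complexes apart after fusion, moved in opposite directions. The gene comt (chrX:13259021-13262488, plus strand), which encodes NSF1, stood at 141, 126 and 142 CPM in input and at 101, 100.01 and 96.2 CPM in the fraction. Its paralogue Nsf2 (chr3R:13833497-13837991, minus strand) stood at 38.4, 37.4 and 37.2 CPM in input and at 54.4, 47.0 and 55.2 CPM in the fraction. Neither gene's groups overlapped. The log2 fold change was -0.45 ± 0.09 for comt (edgeR adjusted p = 0.0049) and 0.48 ± 0.11 for Nsf2 (edgeR adjusted p = 0.0067). Reads that map to both paralogues are left out of these counts. Snap25 fell by 0.39 on the log2 scale (SE 0.10, edgeR adjusted p = 0.016) and Syx1A by 0.33 (SE 0.11, edgeR adjusted p = 0.034). The complexin gene cpx fell by 0.42 (SE 0.16, edgeR adjusted p = 0.069), and its call ended on leaving out any library but Gr5a replicate 2, with adjusted p between 0.12 and 0.22. Syx1A lost it without input replicate 3 or Gr5a replicate 1 (adjusted p = 0.13 and 0.11).

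The other called members on CD7 were Syt7, shi, Fife and Liprin-alpha. Syt7, a synaptotagmin, fell by 0.47 on the log2 scale (SE 0.13, edgeR adjusted p = 0.020), and shi, the dynamin that cuts vesicles off the membrane, by 0.42 (SE 0.10, edgeR adjusted p = 0.011). Both increases among the scaffold genes were small. Fife, a RIM-related active zone protein, stood at 193, 209 and 211 CPM in input and at 238, 287 and 239 CPM in the fraction, an increase of 0.33 ± 0.13 (edgeR adjusted p = 0.068). Liprin-alpha, a scaffold protein that organises the active zone, rose by 0.30 ± 0.09 (edgeR adjusted p = 0.022). The Fife call was lost without any one input library or Gr5a replicate 2 (adjusted p between 0.13 and 0.22) and that of Liprin-alpha without input replicate 1 (adjusted p = 0.14).

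The broad neuronal genes elav, nSyb, Syt1 and brp were not called on CD7, nor was the transmitter gene ChAT. The RNA-binding protein gene elav (chrX:509235-523226, minus strand), the standard neuronal marker, stood at 446, 477 and 507 CPM in input and at 350.2, 458 and 381 CPM in the fraction, and its log2 fold change was -0.26 ± 0.13 (edgeR adjusted p = 0.15). One fraction library, replicate 2, reached into the input range. For nSyb the log2 fold change was -0.22 ± 0.15 and for Syt1 -0.16 ± 0.15. The same replicate was again the highest of the 3. brp, which encodes Bruchpilot, was at 0.13 ± 0.16, and ChAT at -0.13 ± 0.10 (edgeR adjusted p = 0.36). Replicate 2 held the highest CPM of the 3 Gr5a CD7 libraries for 22 of 29 members. Without it, elav, nSyb and Syt1 were called lower (edgeR adjusted p = 0.046, 0.084 and 0.098) and the members called numbered 15 of 29, 13 of them lower. In that fit 6896 of all 14085 genes were called in either direction, a share similar to the 15 of 29. The share of all genes called lower was not counted there. Same-numbered fraction and input libraries of CD7 deviated together, and blocking on that number, elav and nSyb were also called lower, at log2 fold changes of -0.28 and -0.24 (edgeR adjusted p = 0.030 and 0.059).

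**Figure D1:**
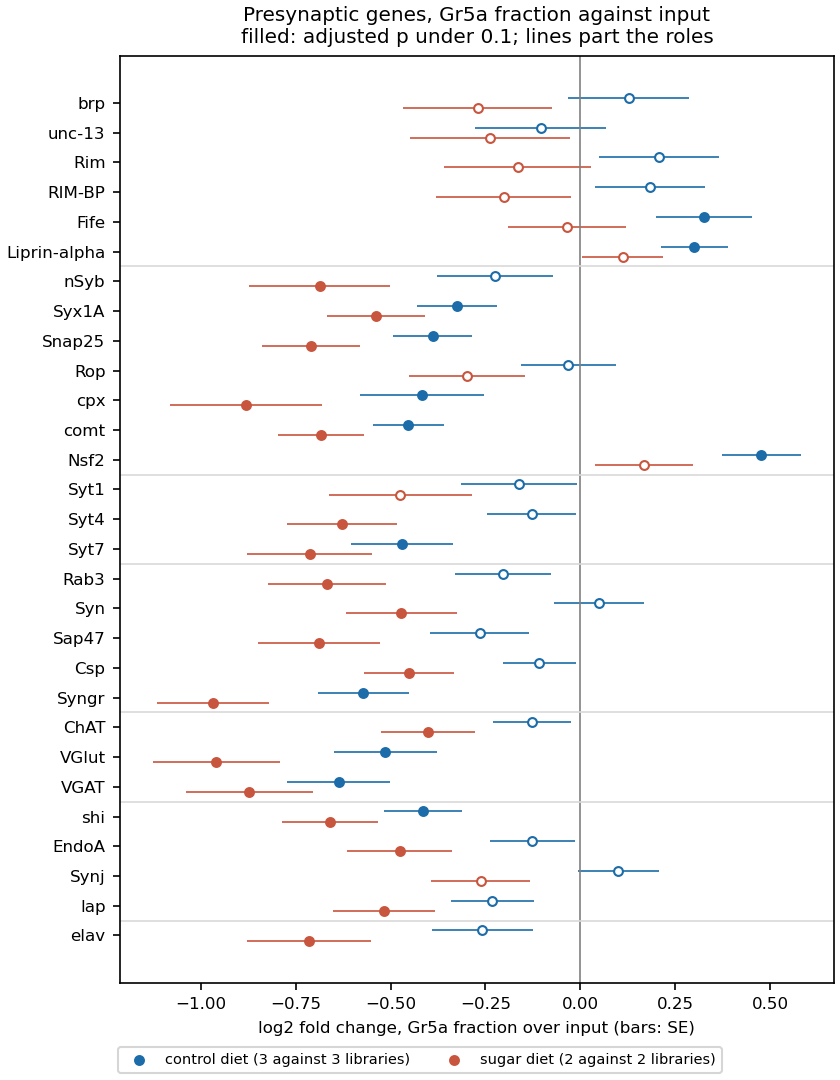
Log2 fold change (x axis) of 29 presynaptic genes (y axis, grouped by role) between the Gr5a fraction and input on the control diet (blue, 3 against 3 libraries) and the sugar diet (red, 2 against 2), with SE bars and filled points for an adjusted p under 0.1. On the control diet 9 members were lower and 3 higher, on the sugar diet 19 were lower and 0 higher, and the 6 active zone genes at the top hold the only called increases beside Nsf2, all on the control diet.

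On the sugar diet, the same comparison also called presynaptic genes lower in the Gr5a fraction. Of 29 members, 19 were lower and 0 higher by edgeR, against 7.95% and 10.8% of all genes called lower and higher. At an unadjusted p under 0.05 the number higher was also 0, as it was by DESeq2, which called 20 members lower and 17.6% of genes listed in either direction. A fit of these 4 libraries alone called 12 members, all lower, beside 1334 of 13569 genes. Blocking that fit on replicate number called 0 members, beside 315 of 13569 genes. Same-numbered SD7 libraries deviated in opposite directions, so the number may not pair them. The median log2 fold change of the members was -0.52 against 0.00 over all genes, and the mean level in the fraction ran from 52.0% to 114% of the input mean. All 5 vesicle-associated genes, all 3 transmitter genes, 5 of 7 fusion genes, 2 of 3 synaptotagmins, 3 of 4 endocytic genes and elav were lower. None of the 6 active zone genes was called, and their log2 fold changes ran from -0.27 to 0.11.

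Syngr and VGlut had the largest decreases on SD7. Syngr stood at 264 and 198 CPM in input and at 113 and 128 CPM in the fraction, a log2 fold change of -0.97 ± 0.15 (edgeR adjusted p = 0.0034). VGlut stood at 1061 and 777 CPM in input and at 492 and 468 CPM in the fraction, a log2 fold change of -0.96 ± 0.17 (edgeR adjusted p = 0.0061). In both genes the fraction lay below the input without overlap, and the input libraries lay further apart than those of the fraction. Decreases of 0.88 in cpx, 0.87 in VGAT and 0.71 in Syt7 followed on the log2 scale, that is -0.88 ± 0.20, -0.87 ± 0.17 and -0.71 ± 0.16.

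The pan-neuronal genes elav and nSyb and the transmitter gene ChAT were among the members called lower on SD7. elav stood at 778 and 602 CPM in input and at 390.3 and 466 CPM in the fraction, a log2 fold change of -0.71 ± 0.16 (edgeR adjusted p = 0.0195). nSyb fell by 0.69 (SE 0.19, edgeR adjusted p = 0.038) and ChAT by 0.40 (SE 0.12, edgeR adjusted p = 0.063). Syt1 was at -0.47 ± 0.19 and brp at -0.27 ± 0.20, and neither passed the threshold (edgeR adjusted p = 0.13 and 0.44). The size of this deficit depended on 1 input library, whose TMM factor was 0.888 against 1.01 to 1.04 in the other input libraries. Input SD7 replicate 1 held the highest CPM of the 5 input libraries for all 29 members. Without it the members' median log2 fold change was -0.32, against 0.05 over all genes. Without Gr5a SD7 replicate 1 it was -0.46, against -0.04 over all genes. Leaving out replicate 2 of input or of the fraction gave medians of -0.65 and -0.63.

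A test of the diet by fraction interaction asked whether the fraction to input difference itself differed between diets. It called 0 members and 0% of all genes by edgeR, and 0 members and 0.0743% of genes listed by DESeq2. All 29 log2 differences were below 0, from -0.52 to -0.13 with a median of -0.35, against -0.05 over all genes. Also below 0 were all 9 glial (median -0.34), 10 other neuronal (median -0.39) and 38 other presynaptic genes (median -0.31). Of these, 2, 6 and 4 had an unadjusted p under 0.05. Of 14 photoreceptor genes 5 were above 0, and all 10 accessory gland genes were. At an unadjusted p under 0.05, 4 members were lower, beside 3.57% of all genes. The smallest p-values were those of Syn (-0.52 ± 0.19), which encodes synapsin, Syt4 (-0.50 ± 0.19) and Rab3 (-0.46 ± 0.20), the GTPase of vesicles, each with an edgeR adjusted p of 0.49. Without input SD7 replicate 1 the median was -0.13, and 1 difference was above 0. Syn carried 4.84% to 13.8% of its counts on the opposite strand, where Timp overlaps it.

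**Figure D2:**
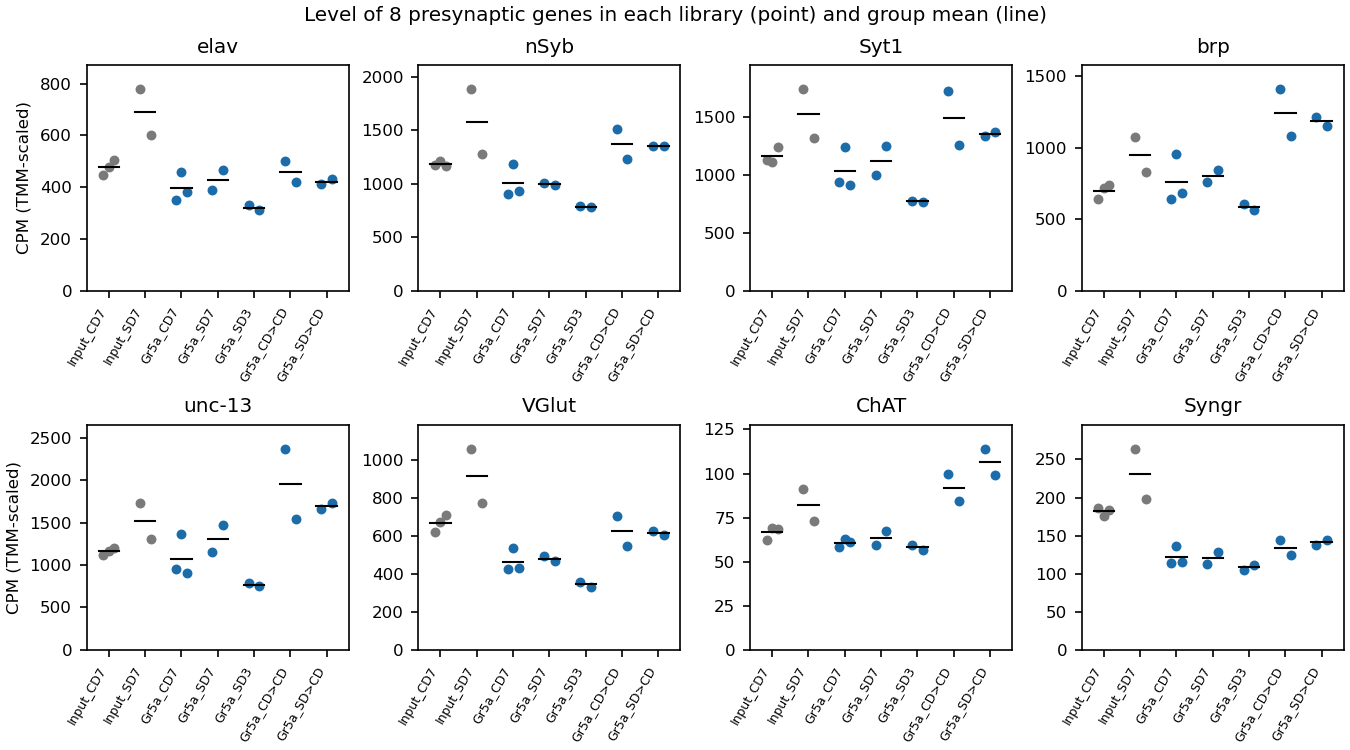
Level (y axis, CPM, each panel starting at 0) of 8 presynaptic genes in each of 16 libraries (points) by group (x axis), with input in grey, the Gr5a fraction in blue and group means as lines. In every panel the highest input value is that of SD7 replicate 1, for example 778 CPM for elav, and the SD3 libraries lie at or near the bottom of the Gr5a fraction.

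Transmitter genes were also compared within each library, where no scaling between libraries enters. The ChAT to VGlut ratio of counts was 0.1002, 0.103 and 0.0968 in input CD7, and 0.0859 and 0.0943 in input SD7. In the fraction it was 0.137, 0.117 and 0.142 on CD7, and 0.121 and 0.144 on SD7. Every fraction library was above every input library, and the ratio was 1.37-fold higher, 0.46 on the log2 scale (two-sided exact permutation within diet, p = 0.0167, the smallest that 120 arrangements can give). When the CD7 libraries were exchanged only within their same-numbered pairs, a test added after the values were seen, exact p was 0.0417, the smallest of 48 arrangements. Exchange within all 5 same-numbered pairs, also added later, gave an exact p of 0.0625, the smallest of 32 arrangements. The SD7 numbers did not deviate together. The difference was 0.39 on CD7 and 0.55 on SD7.

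The ChAT to VGAT ratio moved likewise. It lay between 1.24 and 1.34 in the 5 input libraries and between 1.65 and 1.93 in the 5 fraction libraries of day 7, without overlap. The mean was 1.42-fold higher, 0.50 on the log2 scale, with 0.52 on CD7 and 0.48 on SD7. Two-sided exact permutation gave p = 0.0167, or 0.0417 with the CD7 pairs kept and 0.0625 with all 5 pairs kept. These 2 ratios share ChAT, and their p-values adjusted over the pair stay at 0.0167. ChAT counts remained below VGlut counts in every library. The Gr5a libraries of the other ages and diets, which had no input of their own, lay at 0.141 to 0.182 for ChAT to VGlut and at 1.57 to 2.25 for ChAT to VGAT, above all 5 input libraries.

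**Figure D3:**
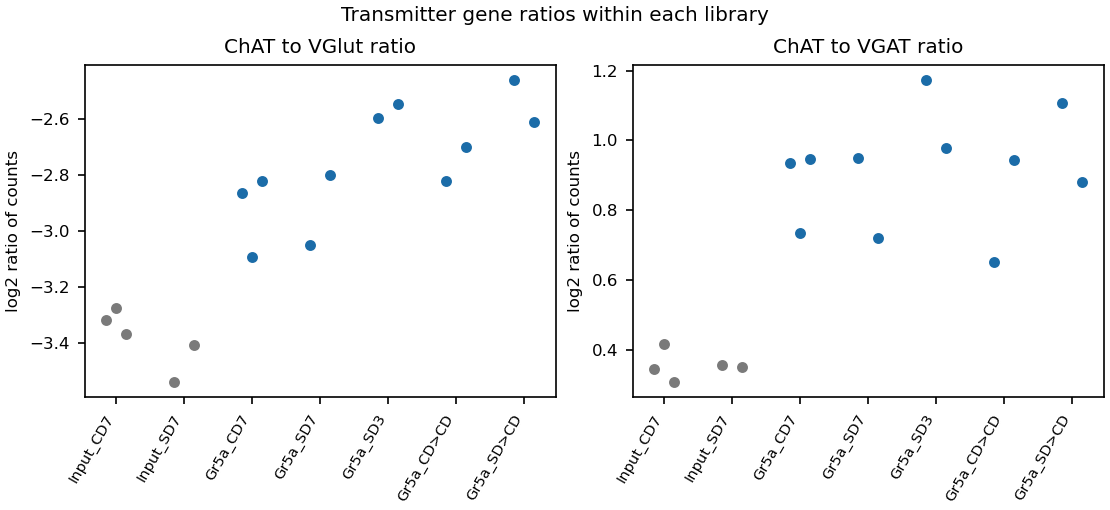
Log2 ratio of counts (y axis) of ChAT to VGlut (left) and ChAT to VGAT (right) in each library (points) by group (x axis), with input in grey and the Gr5a fraction in blue. All 11 Gr5a libraries lie above all 5 input libraries in both panels, and the day 7 difference is 0.46 on the left and 0.50 on the right.

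In whole heads, sugar feeding went with more message of presynaptic and other neuronal genes, but no member passed the threshold. Input SD7 against CD7 called 0 of 29 members by edgeR, which called 0.0705% of genes tested, and 1, elav, by DESeq2, which called 4.92% of the 17489 genes listed. All 29 log2 fold changes were above 0, from 0.08 to 0.54 with a median of 0.37 against 0.02 over all genes. At an unadjusted p under 0.05, 22 members were higher, beside 9.91% of all genes. In 27 of 29 members both SD7 libraries lay above all 3 CD7 libraries, beside 24.3% of all genes. These genes were measured in the same few libraries and are not independent of each other.

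The smallest p-values in input were those of elav, Syn and VGlut. elav stood at 446, 477 and 507 CPM on CD7 and at 778 and 602 CPM on SD7, a log2 fold change of 0.54 ± 0.15 (edgeR adjusted p = 0.17). Syn was at 0.45 ± 0.13 (edgeR adjusted p = 0.19) and VGlut at 0.47 ± 0.15 (edgeR adjusted p = 0.199). The separation was much larger for SD7 replicate 1 than for replicate 2. Summed over the members, input held 13801, 14030 and 14986 CPM on CD7 and 21387 and 16282 CPM on SD7. Without replicate 2 the members' median log2 fold change was 0.54, against 0.03 over all genes. Without replicate 1 it was 0.15, against -0.04 over all genes. Genes of accessory gland, midgut and fat body moved the other way in the same libraries. All 10 accessory gland genes were lower at an unadjusted p under 0.05, with a median log2 fold change of -1.42, as were 9 of 12 midgut genes, with a median of -1.74, and 3 of 5 fat body genes. Their part in the members' values was not tested.

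Within the Gr5a fraction, no presynaptic gene was called after 7 days of sugar. SD7 against CD7 called 0 members by edgeR, at the adjusted threshold and at an unadjusted p under 0.05, beside 0% and 5.61% of all genes, and 0 by DESeq2, beside 0.343% of genes listed. Log2 fold changes ran from -0.18 to 0.30 with a median of 0.06. The smallest p-values were those of Nsf2 (-0.18 ± 0.11), of unc-13 (0.30 ± 0.22), which encodes the factor that primes vesicles for fusion, and of Syt7 (0.22 ± 0.17), with edgeR adjusted p of 0.92, 0.93 and 0.93. For unc-13 the values were 958, 1364 and 906 CPM on CD7 and 1149 and 1478 CPM on SD7, so the groups overlapped. With reads of both strands, the members' median was -0.03. The SE of a member, 0.09 to 0.22, sets what these 5 libraries could show.

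After 3 days of sugar, presynaptic genes tended lower in the Gr5a fraction, with no member called by edgeR. The labels give no separate age for SD3, and the paper describes its control as age-matched. Sugar and any difference in age cannot be told apart in this comparison. SD3 against CD7 called 0 of 29 members by edgeR, beside 0.0436% of all genes, and 1, cpx, by DESeq2, beside 2.52% of genes listed. The median log2 fold change was -0.24 against -0.08 over all genes, and 27 of 29 values were below 0. At an unadjusted p under 0.05, 11 members were lower, beside 9.2% of all genes. In 18 members both SD3 libraries lay below all 3 CD7 libraries, beside 21.4% of all genes. Of the 11 Gr5a libraries, an SD3 library held the lowest CPM for 22 of 29 members.

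cpx had the smallest p-value in this comparison. It stood at 1969, 2804 and 2143 CPM on CD7 and at 1505 and 1389 CPM on SD3, and the groups did not overlap, with a log2 fold change of -0.75 ± 0.20 (edgeR adjusted p = 0.31). VGlut stood at 424, 539 and 431 CPM on CD7 and at 359.6 and 331 CPM on SD3 (-0.50 ± 0.16, edgeR adjusted p = 0.31). nSyb was at -0.44 ± 0.16 (edgeR adjusted p = 0.31). The 6 active zone genes were at -0.56 to -0.09, and Rop, the fly Munc18 that chaperones syntaxin, was the largest value above 0, at 0.33 ± 0.15. The summed photoreceptor level was 11438 and 14052 CPM in the 2 SD3 libraries against 12449 to 18938 CPM on CD7, and 0 of the 14 genes had an unadjusted p under 0.05. At that level 6 of 10 muscle genes, 4 of 5 fat body genes, 4 of 12 midgut genes and 2 of 10 accessory gland genes were lower and none higher, with median log2 fold changes of -0.56, -0.78, -0.72 and -0.69, and 0 of 9 glial genes differed. Reads outside genes were fewest in SD3, at 8.84% and 5.84% of the same-strand counts against 10.9% to 25.4% in the other 8 Gr5a libraries with that value. The part of these in the members' values was not tested.

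Flies returned to the control diet showed no called difference in the presynaptic genes. SD>CD against CD>CD called 0 members by edgeR, beside 13.3% of all genes, and 0 by DESeq2, beside 12.1% of genes listed. Log2 fold changes ran from -0.15 to 0.30 with a median of 0.04. At an unadjusted p under 0.05, 2 members were higher, beside 1.46% of all genes. These were comt, at 126 and 117 CPM in CD>CD and 142 and 145 CPM in SD>CD (0.30 ± 0.11, edgeR adjusted p = 0.17), and ChAT, at 99.8 and 84.2 CPM in CD>CD and 114 and 99.4 CPM in SD>CD (0.27 ± 0.12, edgeR adjusted p = 0.27). The comt libraries did not overlap, and those of ChAT overlapped slightly. Synj, the synaptojanin that sheds the coat from new vesicles, was at 0.18 ± 0.14 (edgeR adjusted p = 0.67). In the same libraries 11 of 12 midgut genes and all 10 accessory gland genes were called lower, with medians of -8.30 and -7.55.

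The change after return was also set against the change at day 7 in one fit. The test of the SD>CD effect against the SD7 effect called 0 members by edgeR, beside 12.3% of all genes, and 0 by DESeq2, beside 11.6% of genes listed, and 0 members had an unadjusted p under 0.05. The differences ran from -0.44 to 0.33. The smallest p-values were those of comt (0.33 ± 0.15), Nsf2 (0.31 ± 0.16) and Synj (0.31 ± 0.19), with edgeR adjusted p of 0.30, 0.35 and 0.47.

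Presynaptic genes also differed within the Gr5a fraction between the 2 control groups, which differ in age and time on the diet. CD>CD against CD7, a comparison added after the values were seen, called 11 of 29 members higher and 0 lower by edgeR, beside 7.65% and 6.46% of all genes. At an unadjusted p under 0.05, 16 were higher and 0 lower, beside 12.6% and 14.1% of all genes. DESeq2 called 13 higher and 0 lower, beside 17.7% of genes listed in either direction. All 6 active zone genes were called higher, whereas none of the 7 fusion genes and none of the 5 vesicle-associated genes was. The mean CD>CD level of a member ran from 99.3% to 182% of its CD7 mean.

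The active zone genes spanned log2 fold changes of 0.47 to 0.79. unc-13 (chr4:867824-912331, minus strand) stood at 958, 1364 and 906 CPM on CD7 and at 2375 and 1543 CPM in CD>CD, a log2 fold change of 0.79 ± 0.22 (edgeR adjusted p = 0.059). Rim, the scaffold that links vesicles and calcium channels, stood at 316, 471 and 329 CPM on CD7 and at 780.3 and 532 CPM in CD>CD (0.74 ± 0.20, edgeR adjusted p = 0.059). In both genes the CD>CD libraries were above all CD7 libraries, with replicate 1 far above replicate 2. brp stood at 639.8, 959 and 681 CPM on CD7 and at 1409 and 1082 CPM in CD>CD (0.64 ± 0.19, edgeR adjusted p = 0.072). RIM-BP, the RIM-binding protein, was higher by 0.58 ± 0.17 (edgeR adjusted p = 0.072). Fife rose by 0.57 ± 0.13 and Liprin-alpha by 0.47 ± 0.10, both with an edgeR adjusted p of 0.033.

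Outside the active zone, 5 members were called. Syt7 stood at 99.2, 124 and 96.8 CPM on CD7 and at 223 and 151 CPM in CD>CD (0.73 ± 0.17, edgeR adjusted p = 0.037). VGAT rose by 0.61 ± 0.17 (edgeR adjusted p = 0.056). ChAT stood at 58.2, 63.1 and 61.0 CPM on CD7 and at 99.8 and 84.2 CPM in CD>CD, a log2 fold change of 0.53 ± 0.11 (edgeR adjusted p = 0.026), with the groups well apart. The endocytic genes Synj and shi rose by 0.38 ± 0.12 and 0.35 ± 0.11 (edgeR adjusted p = 0.0965 and 0.097). In contrast, cpx was at 0.01 ± 0.20, Snap25 at 0.02 ± 0.11 and Csp, a vesicle chaperone, at -0.07 ± 0.09.

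This contrast rested on few libraries. CD>CD replicate 1 held the highest CPM of the 11 Gr5a libraries for 20 of 29 members. Without it the log2 fold changes of the active zone genes were 0.37 to 0.49. The members' median was then 0.24, against -0.05 over all genes, and it was 0.36 without CD>CD replicate 2. Without CD7 replicate 1, 3 members were called, without CD7 replicate 3, 1, and without CD7 replicate 2, 17. Of all genes, 778 of 13616, 362 of 13602 and 2394 of 13553 were called in these fits. With reads of both strands 3 were called, and in a fit of the 2 groups alone 0, beside 821 of 13731 and 34 of 13300 genes. CD>CD replicate 1 also had the largest share of same-strand reads outside genes, 25.4% against 5.84% to 15.7% in the other Gr5a libraries with that value. Its TMM factor, by which CPM is divided, was 0.872, the lowest of the 16 libraries. Photoreceptor genes were higher in CD>CD too. Of other lists, 8 of 10 accessory gland and 4 of 10 muscle genes were lower. The photoreceptor calls were 9 of 14 higher with a median log2 fold change of 0.71, and the summed level was 22114 and 30260 CPM against 12449 to 18938 CPM on CD7. The part of these in the members' values was not tested.

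**Figure D4:**
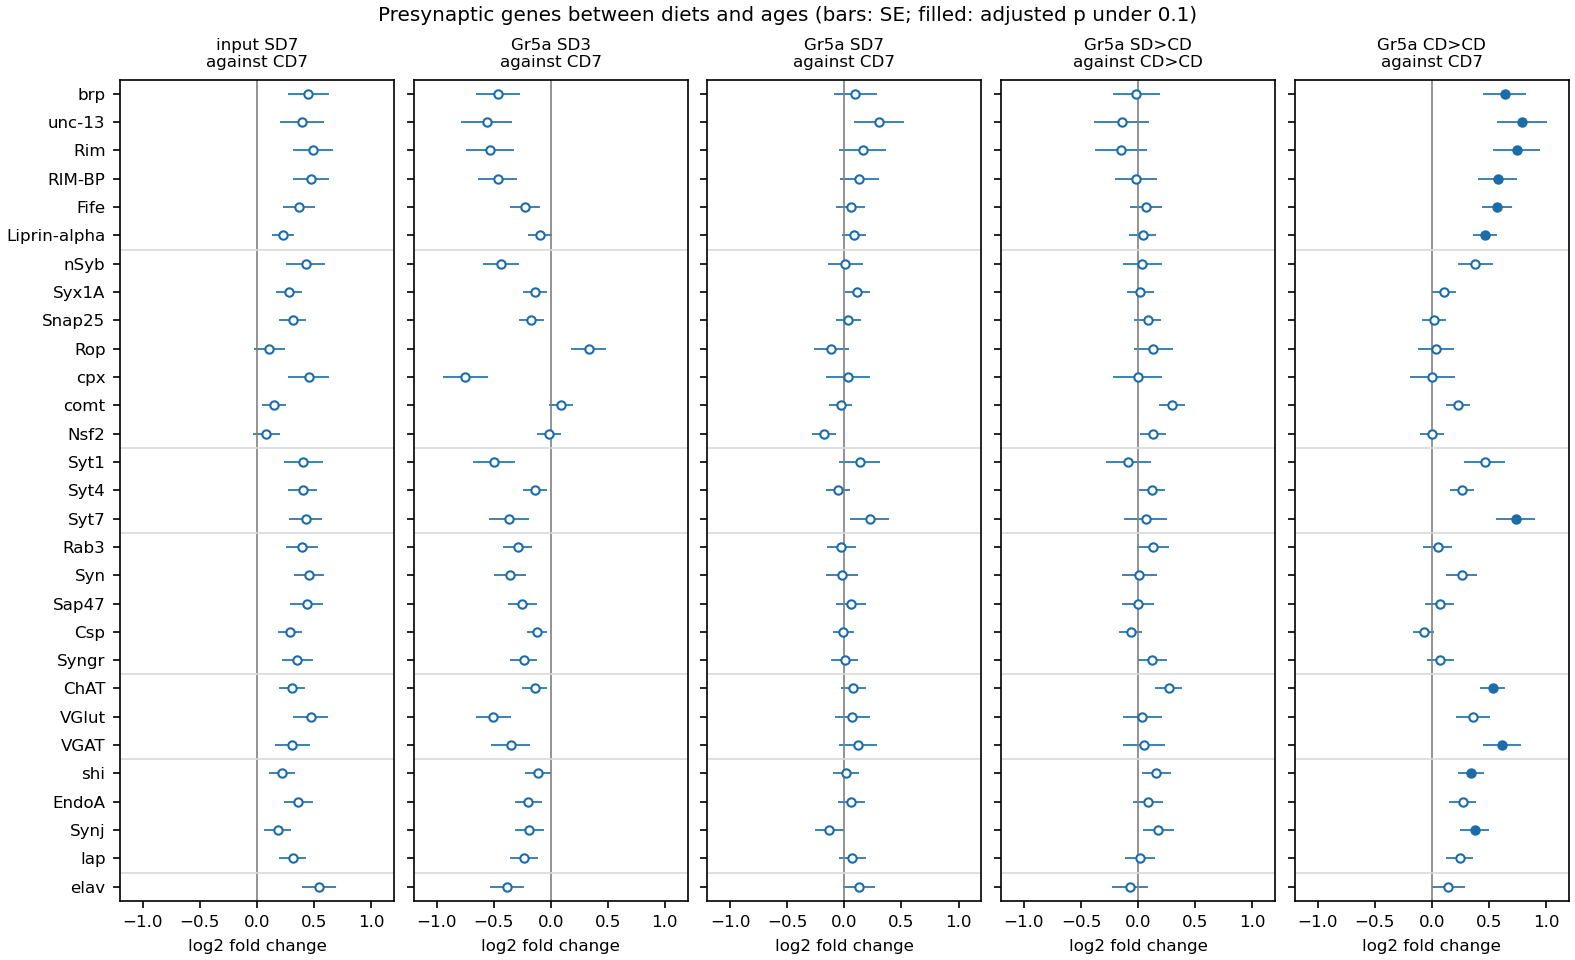
Log2 fold change (x axis) of 29 presynaptic genes (y axis, by role) in 5 comparisons between diets or ages, with SE bars and filled points for an adjusted p under 0.1. No point is filled in the first 4 panels, and 11 are filled in the comparison of CD>CD with CD7, including all 6 active zone genes.

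Long and short members moved differently in several comparisons. Exon length of the 29 genes ran from 2282 bases for Snap25 to 22598 for unc-13, and the active zone genes are among the longest. The Spearman correlation of exon length with log2 fold change over the 29 members was 0.57 for input SD7 against CD7, -0.61 for SD3 against CD7, 0.53 for SD7 against CD7, -0.65 for SD>CD against CD>CD and 0.44 for CD>CD against CD7. Over all genes with a length the same correlations were 0.29, -0.04, -0.17, 0.28 and 0.27. Each is a description over genes that share the same libraries, and the last 4 comparisons share groups. For the Gr5a fraction against input it was 0.37 on CD7 and 0.33 on SD7 over the members, against 0.26 and 0.01 over all genes. The part of length in the values of the active zone genes was not tested.

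**Figure D5:**
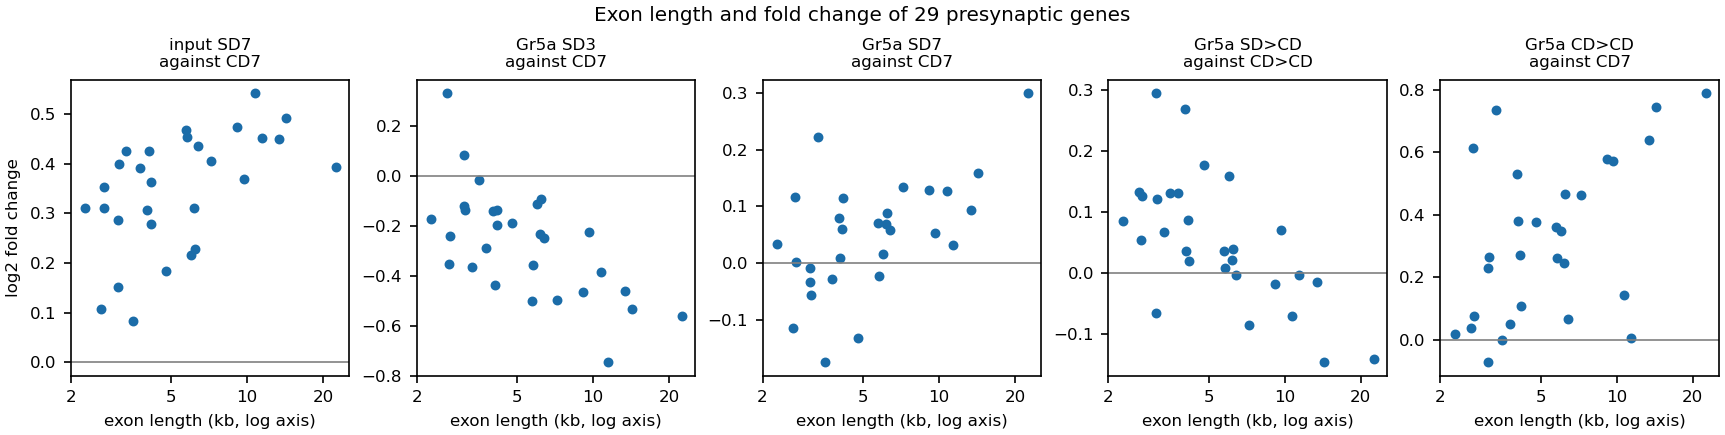
Log2 fold change (y axis) of 29 presynaptic genes (points) against exon length (x axis, kilobases on a log axis) in 5 comparisons. Spearman correlations from left to right are 0.57, -0.61, 0.53, -0.65 and 0.44.

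Further presynaptic and neuronal genes outside the 31 were counted in the same comparisons. Over all genes, 24.3% were called higher and 22% lower in the fraction on CD7, and 10.8% and 7.95% on SD7. Of 38 other presynaptic genes tested, 10 were higher and 2 lower on CD7 and 1 higher and 11 lower on SD7. Their median log2 fold changes were 0.07 and -0.19. Of 10 other neuronal genes, 2 were higher and 2 lower on CD7 and 0 higher and 6 lower on SD7. In CD>CD against CD7, 16 of the 38 other presynaptic genes were higher and 3 lower, beside 7.65% and 6.46% of all genes.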

How the data were processed

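Ribo-depleted RNA of 16 libraries in 7 groups was sequenced by the authors, aligned with STAR to dm6 (BDGP6) and deposited as raw gene counts, neither normalized nor pooled. The methods name HTSeq for counting, whereas the deposited files have the layout of STAR, which leaves out reads mapping to several places. The same-strand column was used. One library, Gr5a CD7 replicate 1, has a single count column, which was taken as same-strand because its median absolute log2 ratio to that column of the other CD7 libraries was 0.587 and 0.354 at 364 and 225 genes where the columns differ, against 5.58 and 5.88 to the unstranded column. The submitters' notes also name SAMtools 1.4 and DESeq2 1.18.0.

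Tests on the counts of all genes used edgeR 4.0.16 under R 4.3.3 (quasi-likelihood F test, filterByExpr, TMM, prior count 0.125, Benjamini-Hochberg adjustment over all genes), with calls at an adjusted p under 0.1, the threshold of the study. The 10 day 7 libraries were fitted together for fraction, input and interaction comparisons, and the 11 Gr5a libraries for diets. SE is the log2 fold change over the square root of F. CPM was scaled by TMM over the 16 libraries. Exon lengths and positions came from Ensembl's BDGP6 annotation. Groups followed the labels, which call the replicates biological. Same-numbered CD7 libraries of fraction and input correlated in their deviations from group means (0.349, 0.234 and 0.283), so the numbers pair them. The scripts were tested on simulated counts.

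Members, lists and tests were chosen with earlier results of these data known. Named genes were elav, brp, Syt1, nSyb, ChAT, VAChT, VGlut and VGAT in the fraction comparisons, and in each comparison every called member, or the 6 largest changes each way where more than 12 were called, or the 3 smallest p-values where none was. Others are named as extremes of a range. Alternatives were DESeq2 1.42.0 size factors and Wald test, no filter, the unstranded column, fits of the compared groups alone, removal of genes over 1% of a library, other control groups, the replicate block and leaving out each library.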

Additional observations from a re-analysis of the deposited data

How the results depend on the processing

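Where 0 members were called the count cannot show stability, so medians are given: leaving out a library moved that of the interaction between -0.50 and -0.13, input between 0.15 and 0.54, SD3 between -0.30 and -0.13, SD7 between -0.02 and 0.14, and SD>CD between -0.05 and 0.12. Keeping all 5 same-numbered pairs, an alternative added after seeing the data, left the log2 differences of ChAT to VGlut and ChAT to VGAT at 0.46 and 0.50 with an exact p of 0.0625, the smallest that 32 arrangements can give. For the Gr5a fraction against input on SD7, 19 members became 12 in a fit of the compared groups alone and 6 to 20 when a library was left out. With the replicate block 0 were called there, and same-numbered SD7 libraries deviated in opposite directions (correlation -0.27); crossed pairs, chosen after seeing the data, gave 19. In input, 0 became 1 by the DESeq2 Wald test. For SD3, 0 became 1 by the Wald test and 20 with CD>CD as the control, beside 3176 of 13758 genes in the latter. For SD>CD, 0 became 16 with CD7 as the control, beside 5982 of 13758 genes. For CD>CD against CD7, 11 became 3 with the unstranded column, 0 in a fit of the compared groups alone and 0 with the replicate block. It became 1 to 17 when a CD7 library was left out. The cause was not tested. brp on CD7 ran from -0.076 without Gr5a CD7 replicate 2, a change of sign, to 0.24 without replicate 1. With the replicate block 17 of 29 members were called for the fraction on CD7, 3 higher and 14 lower. In the same fit 7915 of all 13445 genes were called in either direction, a share similar to the 17 of 29. The share of all genes called lower was not counted there. Pairing could not be used for SD>CD, whose numbers are not shared. Groups of 2 or 3 libraries limit every comparison.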
